A study of Mus musculus with 4 samples.

Results

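Serine synthesis, folate-dependent one-carbon metabolism and the ATF4 response were described through 34 genes, taken by symbol from the 55426 genes of the deposited tables. All 34 symbols were found, and 33 passed the filter on low counts. Cbs, which makes cystathionine from homocysteine and serine, did not: it had 3 and 7 counts in MLL-ENL and 3 and 1 in MLL-ENL dYEATS libraries. The genes were read in 4 groups by role: 9 serine and folate enzymes, 7 other amino acid enzymes, 7 amino acid transporters, and 11 stress factors and other ATF4 targets.

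The cells were mouse hematopoietic stem and progenitor cells (HSPCs) from lineage-negative bone marrow, transformed by a fusion of MLL, a histone methyltransferase, to ENL, a chromatin reader of acetylated histones. The first group carried the MLL-ENL fusion. The second carried a fusion of MLL to ENL residues 372 to 559 (MLL-ENL dYEATS), so that the ENL sequence before residue 372, where the acetyl-binding YEATS domain lies, was absent. Which ENL residues the first fusion keeps is not stated in the labels. Both lines were grown in the same serum-supplemented medium, both carried an MLL fusion, and no cells without a fusion were compared. Each group had 2 libraries, which the study calls technical replicates, so every p-value measures the spread between libraries, and the genotype and the line cannot be told apart.

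Serine is made from a glycolytic intermediate by PHGDH, PSAT1 and PSPH in turn, and serine hydroxymethyltransferases pass a carbon from serine to folate for purine, thymidine and methionine synthesis. ATF4 is a transcription factor whose mRNA is translated when eIF2alpha is phosphorylated, as happens in amino acid shortage or endoplasmic reticulum (ER) stress. With C/EBP-family partners it binds C/EBP-ATF response elements, and it is known to activate serine synthesis enzymes, amino acid transporters, asparagine synthetase and the stress factors CHOP and TRIB3. Its mRNA level is therefore no measure of its protein.

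Promoter sequence is shown for Phgdh and Vldlr, the members with the largest decreases, and for members with a C/EBP-ATF response element. Sequences are from RefSeq on GRCm38.p6, on the strand of the gene, 5′ to 3′. The element was searched as TGATGNAA, where N is any base, on both strands, from 250 bases before to 50 bases after each start site. Of 32851 promoters in the table, 1304 (3.97%) held it. The table matched 29 members with 33 promoters, and 9 members held it, each in 1 promoter; Slc1a5, Eif4ebp1, Cth, Aldh1l2 and Slc7a5 had no entry. The stricter form TGATGCAA, whose matches are all among the former, stood in 294 promoters (0.895%) and in 7 members, all of the 9 except Asns and Trib3. The 250 bases before the Phgdh start site (chr3:98339970-98340219, minus strand) and before the first of 2 Vldlr start sites (chr19:27216234-27216483, plus strand) held no match and are given in lower case throughout.
Phgdh: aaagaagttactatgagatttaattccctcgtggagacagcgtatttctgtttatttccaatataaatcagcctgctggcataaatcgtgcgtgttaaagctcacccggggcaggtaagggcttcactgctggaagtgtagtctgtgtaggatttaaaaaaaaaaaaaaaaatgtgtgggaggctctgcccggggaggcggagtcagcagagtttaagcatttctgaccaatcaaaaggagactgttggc
Vldlr: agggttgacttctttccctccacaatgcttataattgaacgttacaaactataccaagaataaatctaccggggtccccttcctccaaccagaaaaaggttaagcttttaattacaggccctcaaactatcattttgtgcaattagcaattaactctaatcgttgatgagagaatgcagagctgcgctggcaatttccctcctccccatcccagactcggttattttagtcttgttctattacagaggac
The windows around the matches carry the match in capitals, and TTGCATCA is TGATGCAA read on the other strand. They are at chr19:27216809-27216838 for Vldlr, before the second of its start sites, chr19:43524680-43524727 for Got1 and chr11:20332699-20332728 for Slc1a4, which are the members with a match whose expression changed. For members that were not called they are at chr3:50443652-50443699 for Slc7a11, whose window holds both of its matches, chr2:119351029-119351076 for Chac1, chr6:7693214-7693243 for Asns and chr2:152344028-152344057 for Trib3. Vldlr and Chac1 lie on the plus strand and the others on the minus strand.
Vldlr second site: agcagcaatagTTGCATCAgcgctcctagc
Got1: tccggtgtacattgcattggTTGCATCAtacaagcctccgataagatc
Slc1a4: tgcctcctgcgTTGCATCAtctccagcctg
Slc7a11: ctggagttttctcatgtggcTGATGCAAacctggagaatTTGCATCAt
Chac1: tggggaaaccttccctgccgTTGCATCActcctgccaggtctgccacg
Asns: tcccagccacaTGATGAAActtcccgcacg
Trib3: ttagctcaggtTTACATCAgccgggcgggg
Nupr1 and Pycr1 also held TGATGCAA. In GENCODE M21 the matches of Asns, Nupr1 and Slc1a4 overlap the 5′ untranslated region, and that of Vldlr lies in an exon of another Vldlr transcript. These are matches of letters; binding was not measured.

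Depth was even, with 28121268 and 27812855 estimated counts for MLL-ENL and 28814798 and 28177480 for MLL-ENL dYEATS. The MLL-ENL libraries differed more from each other than the other pair: the SD of the log2 ratio over genes was 0.47 against 0.29, and a ribosomal RNA gene held 9.25% of all reads counted for MLL-ENL replicate 1 and 4.94 to 5.46% for the other libraries. The labels could not be checked against the fusions, since reads of Mllt1 (which encodes ENL) and Kmt2a (MLL) come from the normal alleles too: Mllt1 stood at 67.7 and 62.1 CPM (counts scaled to a common library size) against 64.0 and 59.3, and Kmt2a at 51.9 and 84.1 against 70.5 and 67.9. Of 8 stem and progenitor markers, Cd34, Flt3 and Ly6a were under 1 CPM in all libraries. The other 5 (Ptprc, Myb, Hoxa9, Kit and Meis1) reached 1 CPM in at least 1 library. Of the 5 that were tested, 2 were lower, 0 were higher and 3 were not called. Of the 2 lower markers, 1 fell by 2-fold or more. Summed CPM of 8 granulocyte and monocyte precursor markers was 8025 and 7018 in MLL-ENL and 4454 and 4501 in MLL-ENL dYEATS libraries. Of these 8 genes, 4 were lower (Mpo, Elane, Prtn3 and Ly6c2), 1 was higher (Csf1r) and 3 were not called. Kit, of the stem and progenitor list, was at 50.4 and 66.9 against 2.62 and 3.91 CPM. Markers of other cells summed to between 0 and 8.55 CPM in each library: 5 of 8 erythroid, 3 of 6 B, 5 of 8 T and NK, 4 of 6 mast cell, 1 of 6 megakaryocyte and 3 of 8 stromal markers were at 0 in all libraries.

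Of the 33 tested genes, 3 were higher in MLL-ENL dYEATS cells (Aldh1l2, Got1 and Ddit4), 6 were lower (Phgdh, Gpt2, Slc1a4, Slc1a5, Vldlr and Stc2) and 24 were not called. Vldlr passed the filter on low counts through the MLL-ENL libraries alone, so its place among the lower genes is a description. A call is a Benjamini-Hochberg adjusted p under 0.05 over all 13245 genes tested, from edgeR's quasi-likelihood test. By that rule 7.04% of all genes tested were higher and 9.84% lower. The median log2 fold change of the 33 genes was -0.17, against -0.01 over all genes, and the median size was 0.30 against 0.29. The median of the 33 had no stable direction: leaving out MLL-ENL replicate 1 gave 0.04, and leaving out the other library of that group gave -0.31. Of the 9 called members, Phgdh, Vldlr and Aldh1l2 changed by 2-fold or more. The counts moved with the libraries used: leaving out MLL-ENL replicate 1 gave 12 higher and 13 lower, leaving out its partner gave 10 and 19, and leaving out either MLL-ENL dYEATS library gave 1 and 2. Calls over all genes moved likewise, to 3678 higher and 3787 lower of 13653 and to 4598 and 4501 of 13681 in the first 2 of these fits, and to between 548 and 558 higher and 844 and 861 lower in the others. Fold changes are MLL-ENL dYEATS over MLL-ENL, so a negative log2 value is a decrease with the shortened fusion. In bulk samples, fewer cells of a type and less RNA per cell cannot be told apart. The granulocyte and monocyte precursor sum moved with the groups, though its genes went both ways. Of 5 tested stem and progenitor markers, 2 were lower. The part of cell composition in the results below was not tested.

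**Figure D1:**
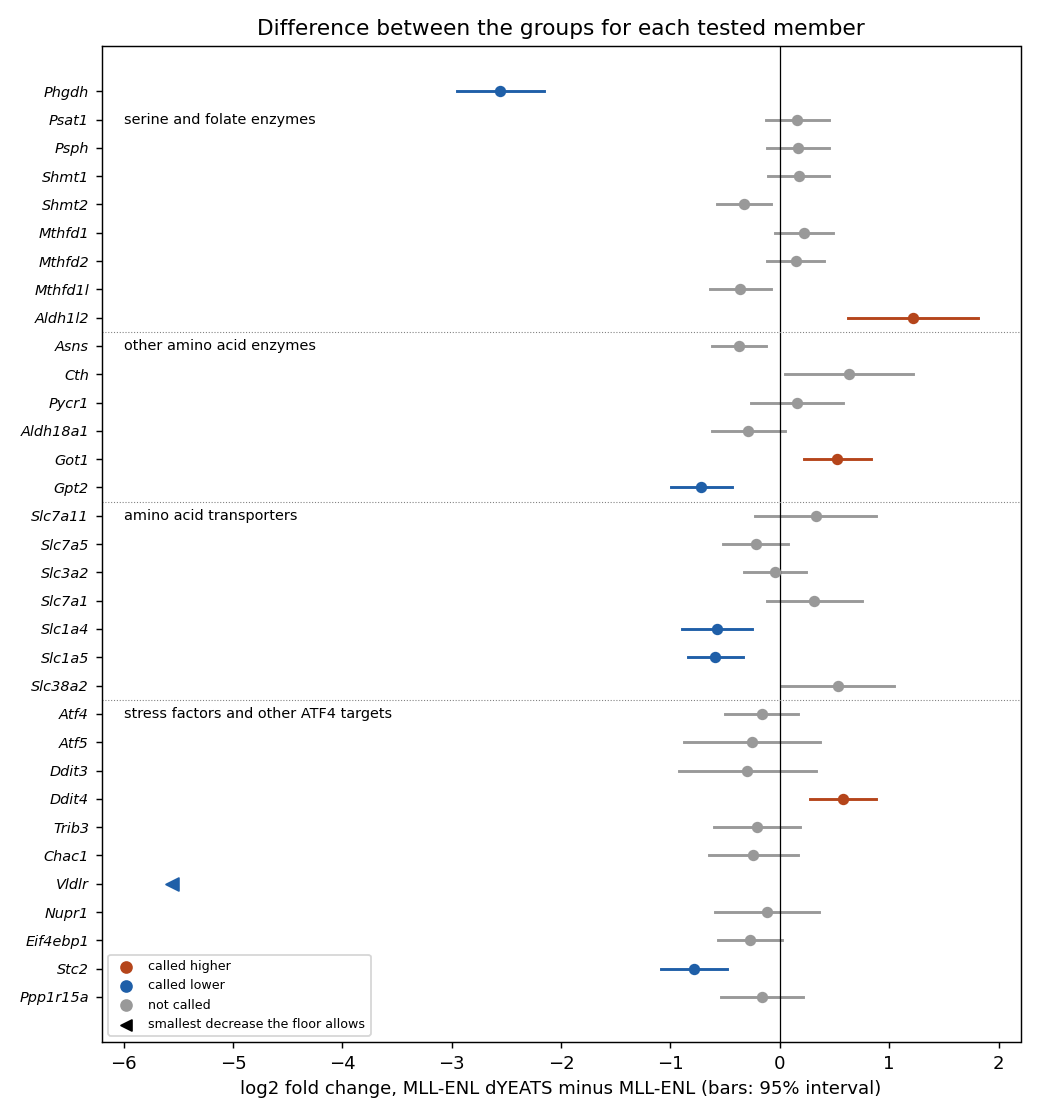
Log2 fold change (x axis, MLL-ENL dYEATS minus MLL-ENL) of each of the 33 tested genes (y axis), with 95% intervals as bars and colour for the call; n = 2 libraries per group. Phgdh at -2.56 and Vldlr, drawn at the smallest decrease from the MLL-ENL mean that its 0 counts allow (-5.56), stand far to the left, while 22 genes lie within 0.5 of 0.

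The 3 enzymes of serine synthesis from glucose did not move together. Phgdh, which catalyses the first step, stood at 223 and 174 CPM with MLL-ENL and at 33.9 and 33.6 CPM with MLL-ENL dYEATS. Both MLL-ENL dYEATS libraries lay far below both MLL-ENL libraries, and its mean fell 5.88-fold, from 198 ± 34.4 to 33.7 ± 0.177 CPM (SD, n = 2). The log2 fold change was -2.56 ± 0.16 (SE), with a 95% interval from -2.95 to -2.16 and an edgeR adjusted p of 0.000681. The gene is protein-coding, on chromosome 3 from 98313170 to 98339990 (GRCm38, GENCODE M21), and it was called lower in each of 15 alternative analyses, with log2 values from -2.72 to -2.31.

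Psat1, the aminotransferase of the next step, was at 359 and 315 CPM in MLL-ENL and at 374 and 378 CPM in MLL-ENL dYEATS libraries. Psph, the phosphatase that releases serine, was at 20.1 and 20.4 CPM against 23.5 and 22.0 CPM. Neither gene was called, with 95% intervals from -0.13 to 0.45 for Psat1 and from -0.12 to 0.45 for Psph (edgeR adjusted p = 0.390 and 0.368), so changes of the size seen for Phgdh lie outside both intervals. On the length-corrected FPKM scale (fragments scaled for transcript length and depth), the level of Phgdh was 0.938 and 0.788 of that of Psat1 in MLL-ENL libraries and 0.159 and 0.140 in MLL-ENL dYEATS libraries. The ratio of Psat1 to Psph was 12.0 and 10.9 against 10.6 and 11.4. The latter ratio overlapped between the groups, and the former did not.

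Of the 6 enzymes that load and convert one-carbon units on folate, 5 were not called and Aldh1l2 rose. Shmt2, the mitochondrial serine hydroxymethyltransferase, was at 362 and 360 CPM in MLL-ENL and at 290 and 286 CPM in MLL-ENL dYEATS libraries. Its cytosolic counterpart Shmt1 was at 82.8 and 88.5 against 99.4 and 93.6 CPM. The libraries of the groups did not overlap for either gene, in opposite directions, yet neither was called (edgeR log2 fold change -0.33, adjusted p = 0.0823, and 0.17, adjusted p = 0.338). The FPKM ratio of Shmt2 to Shmt1 was 3.42 and 3.60 in MLL-ENL and 2.80 and 2.78 in MLL-ENL dYEATS libraries.

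Mthfd1l, the mitochondrial enzyme that releases formate, was at 185 and 168 CPM against 140 and 135 CPM, with a log2 fold change of -0.36 that was not called (edgeR adjusted p = 0.0840). Mthfd2, the mitochondrial methylene-folate dehydrogenase, was at 115 CPM in each MLL-ENL library, against 130 and 125 CPM. Mthfd1, its trifunctional cytosolic relative, was at 140 and 149 against 172 and 165 CPM. Neither of the latter was called either, with log2 fold changes of 0.14 and 0.22.

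Aldh1l2, which oxidizes formyl-folate to carbon dioxide in mitochondria, was the least expressed of these enzymes and the single one that rose. It stood at 1.90 and 2.81 CPM with MLL-ENL and at 5.62 and 5.37 CPM with MLL-ENL dYEATS, without overlap. The rise was 2.33-fold, with a log2 fold change of 1.22 ± 0.24 (SE), a 95% interval from 0.62 to 1.81 and an edgeR adjusted p of 0.0247. It was called without each library in turn, and was not called by limma on the deposited FPKM, where the adjusted p was 0.0824 or 0.1145 by pseudocount and the range over 15 alternatives was 3.01e-07 to 0.1145. Aldh1l2 met the filter of at least 5 CPM in 2 libraries through the MLL-ENL dYEATS libraries alone, so its call there adds no support. The gene lies on chromosome 10 from 83487450 to 83534140.

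In all, 1 of the 9 serine and folate enzymes was higher, 1 was lower and 7 were not called. By the same rule 7.04% of all genes tested were higher and 9.84% lower. The 9 enzymes had a median log2 fold change of 0.16. The libraries of the 2 groups did not overlap for any of the 9, with 6 higher and 3 lower in MLL-ENL dYEATS cells. Such separation was common: over all genes tested, 32.1% had both MLL-ENL dYEATS libraries above and 32.2% had both below the MLL-ENL libraries.

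**Figure D2:**
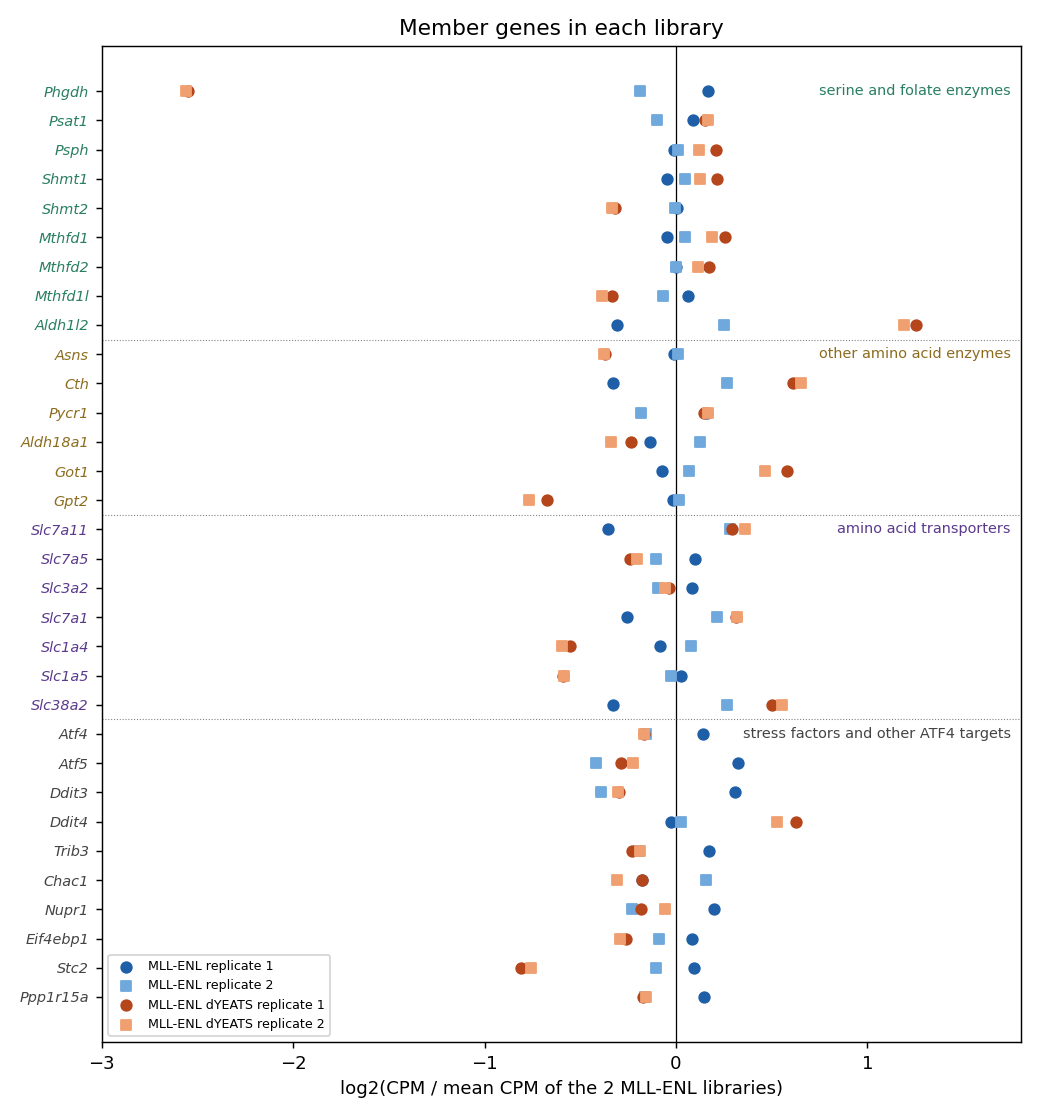
Log2 of CPM over the mean CPM of the MLL-ENL libraries (x axis) for each tested member except Vldlr, which had 0 counts in MLL-ENL dYEATS cells (y axis, by role group), with 1 point per library and colours for the groups. The MLL-ENL dYEATS points of Phgdh lie far to the left of 0, those of Psat1 and Psph slightly to its right, and several members, such as Atf5 and Slc7a11, have the MLL-ENL points wide apart.

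Among the other amino acid enzymes, the 2 aminotransferases moved in opposite directions. Gpt2, the mitochondrial alanine aminotransferase, was at 47.6 and 48.8 CPM in MLL-ENL and at 30.2 and 28.3 CPM in MLL-ENL dYEATS libraries. It fell by 0.72 ± 0.11 (SE) on the log2 scale, with a 95% interval from -0.998 to -0.44 and an edgeR adjusted p of 0.0122. Got1, the cytosolic aspartate aminotransferase, was at 21.8 and 24.1 CPM against 34.4 and 31.8 CPM, and rose by 0.52 ± 0.12, with a 95% interval from 0.22 to 0.83 and an edgeR adjusted p of 0.0420. Groups did not overlap for either gene. The FPKM ratio of Got1 to Gpt2 was therefore 1.07 and 1.12 with MLL-ENL and 2.41 and 2.703 with MLL-ENL dYEATS. Gpt2 lies on chromosome 8 from 85492576 to 85527560, and Got1 on chromosome 19 from 43499752 to 43524605.

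Asns, asparagine synthetase and a much-used readout of ATF4 activity, was at 221 and 224 CPM in MLL-ENL and at 172 and 171 CPM in MLL-ENL dYEATS libraries. The groups were well separated, and the log2 fold change of -0.37 (95% interval -0.62 to -0.12) was not called (edgeR adjusted p = 0.0614). Cth, which makes cysteine from cystathionine, was at 3.62 and 5.48 CPM against 6.95 and 7.15 CPM, with a log2 fold change of 0.63 (0.04 to 1.22) that was not called either (edgeR adjusted p = 0.129). In the proline branch, Pycr1 stood at 10.045 and 7.89 against 9.95 and 10.1 CPM, and Aldh18a1 at 120 and 143 against 112 and 104 CPM, neither called. Of the 6 tested enzymes of this group, 1 was higher, 1 was lower and 4 were not called. Over all genes tested, 7.04% were higher and 9.84% lower. The 6 enzymes had a median log2 fold change of -0.06. Over the alternatives that tested these 6 it ran from -0.09 to -0.01. With no filter and by DESeq2, which add the barely detected Cbs, it was -0.29 and -0.28.

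Among the transporters, both neutral amino acid exchangers of the SLC1 family fell, and the other 5 were not called. Slc1a5 (ASCT2), which carries glutamine among others, was at 243 and 234 CPM in MLL-ENL and at 158 and 159 CPM in MLL-ENL dYEATS libraries. It fell by 0.59 ± 0.10 (SE) on the log2 scale, with a 95% interval from -0.84 to -0.34 and an edgeR adjusted p of 0.0166. Slc1a4 (ASCT1), which carries serine and alanine, was far lower, at 16.5 and 18.6 against 12.0 and 11.6 CPM. It fell by 0.57 ± 0.13, with a 95% interval from -0.89 to -0.25 and an edgeR adjusted p of 0.0364. The groups overlapped for neither. Slc1a5 lies on chromosome 7 from 16781340 to 16798274 and Slc1a4 on chromosome 11 from 20302180 to 20332713.

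Slc3a2 is the heavy chain that both Slc7a5 (LAT1, the leucine carrier) and Slc7a11 (xCT, the cystine carrier) need at the membrane. Slc3a2 was at 217 and 192 CPM in MLL-ENL and at 200 and 197 CPM in MLL-ENL dYEATS libraries, and its log2 fold change was -0.05, with a 95% interval from -0.33 to 0.24 (0.0075 when scaled by library totals). Slc7a5 was at 433 and 376 against 343 and 351 CPM. Slc7a11 was at 40.2 and 62.4 against 62.9 and 65.8 CPM, so that MLL-ENL replicate 1 stood alone below the other 3 libraries. The FPKM ratio of Slc7a11 to Slc3a2 was accordingly 0.0323 in that library and 0.0604 to 0.0634 in the other 3.

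The same library stood below the rest for Slc7a1 (CAT1, the arginine and lysine carrier), at 198 CPM against 274, 293 and 295, and for Slc38a2 (SNAT2, a carrier of small neutral amino acids), at 153 CPM against 231, 271 and 282. Slc38a2 had a log2 fold change of 0.53 (0.01 to 1.05) that was not called (edgeR adjusted p = 0.144). With the library number as a block it was called, at 0.56 with an adjusted p of 0.0161, and so was Cth, at 0.65 with an adjusted p of 0.0447. Over all 15 alternatives the adjusted p ran from 5.37e-15 to 0.517 for Slc38a2 and from 7.92e-06 to 0.460 for Cth. The numbers are not known to pair the libraries. Of the 7 transporters, 2 were lower and 0 were higher by edgeR, against 9.84% and 7.04% of all genes tested. At an unadjusted p under 0.05 in edgeR, 1 was above, against 2040 of 13245 over all genes. DESeq2 and limma-voom also called 0 higher. The median log2 fold change of the transporters was -0.05, but 0.04 without MLL-ENL replicate 1, -0.13 without MLL-ENL replicate 2 and 0.01 with library totals or by limma on FPKM.

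Atf4 itself was the most abundant member per transcript length in both groups, at 305 ± 29.0 and 282 ± 1.26 FPKM (SD, n = 2). It was at 490 and 399 CPM in MLL-ENL and at 395 and 396 CPM in MLL-ENL dYEATS libraries. MLL-ENL replicate 1 stood above the other 3 libraries, which were nearly equal, and the log2 fold change was -0.17 with a 95% interval from -0.50 to 0.17 (edgeR adjusted p = 0.436). Targets that are widely used as readouts of the response were not called either. Trib3, a pseudokinase that restrains ATF4, was at 25.95 and 20.2 against 19.7 and 20.2 CPM. Chac1, a glutathione-degrading enzyme, was at 12.3 and 15.6 against 12.3 and 11.3 CPM. Their 95% intervals ran from -0.60 to 0.18 and from -0.65 to 0.17 on the log2 scale, so 2-fold changes of either lie outside them. The FPKM ratio of Trib3 to Atf4 stayed between 0.0432 and 0.0481 in the 4 libraries.

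Ddit3, which encodes the pro-apoptotic factor CHOP, was at 13.4 and 8.25 CPM in MLL-ENL and at 8.82 and 8.79 CPM in MLL-ENL dYEATS libraries. Another entry under the same symbol overlaps it and was at 0 counts in all libraries. Atf5, a related factor, was at 130 and 78.0 against 85.2 and 89.1 CPM. Nupr1, a stress-induced chromatin protein, was at 10.5 and 7.82 against 8.07 and 8.79 CPM. For all 3 the MLL-ENL dYEATS libraries lay between the MLL-ENL libraries, and the log2 fold changes of -0.30, -0.26 and -0.12 turned positive without MLL-ENL replicate 1. Ppp1r15a (GADD34), which restores translation, and Eif4ebp1, a repressor of cap-dependent translation, had log2 fold changes of -0.16 and -0.27 and were not called.

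Vldlr, a lipoprotein receptor and ATF4 target, was detected in 1 line and not in the other. With MLL-ENL it had 101 and 171 counts (3.77 and 6.08 CPM, 1.63 and 1.96 FPKM), and with MLL-ENL dYEATS it had 0 counts in both libraries. A count of 0 allows up to 3 counts in a library, or 0.105 CPM. Relative to the MLL-ENL mean, the gene was at least 47.1-fold lower in MLL-ENL dYEATS cells, for counting error at 0 only. Relative to MLL-ENL replicate 1, the lower library, the bound is smaller. Since it passed the filter on low counts through the MLL-ENL libraries alone, it had to differ, and its call adds no support. It lies on chromosome 19 from 27216484 to 27254231.

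Stc2, a secreted glycoprotein of calcium and phosphate handling, was at 152 and 132 CPM in MLL-ENL and at 81.0 and 84.2 CPM in MLL-ENL dYEATS libraries, without overlap. It fell by 0.78 ± 0.12 (SE) on the log2 scale, with a 95% interval from -1.08 to -0.48 and an edgeR adjusted p of 0.0119. Ddit4 (REDD1), an inhibitor of mTORC1, was the single member of the stress group that rose, from 11.2 and 11.6 CPM to 17.6 and 16.5 CPM. Its log2 fold change was 0.58 ± 0.12, with a 95% interval from 0.27 to 0.88 and an edgeR adjusted p of 0.0313. Stc2 lies on chromosome 11 from 31357307 to 31370074 and Ddit4 on chromosome 10 from 59949669 to 59951834.

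Of the 11 stress factors and other targets, 1 was higher, 2 were lower and 8 were not called. Over all genes tested, 7.04% were higher and 9.84% lower. Vldlr is among the 2 lower genes, where its place is a description only. Log2 fold changes of the 11 were negative for 10, with a median of -0.24. Without MLL-ENL replicate 1 only 7 were negative and the median was -0.01. By promoter sequence, of the 9 members with the response element, 1 was higher, 2 were lower and 6 were not called (median log2 fold change -0.21). Vldlr is again 1 of the 2 lower genes, as a description only. Of the 20 with a promoter in the table and no match, 1 was higher, 3 were lower, 15 were not called and 1 was not tested (median -0.16).

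**Figure D3:**
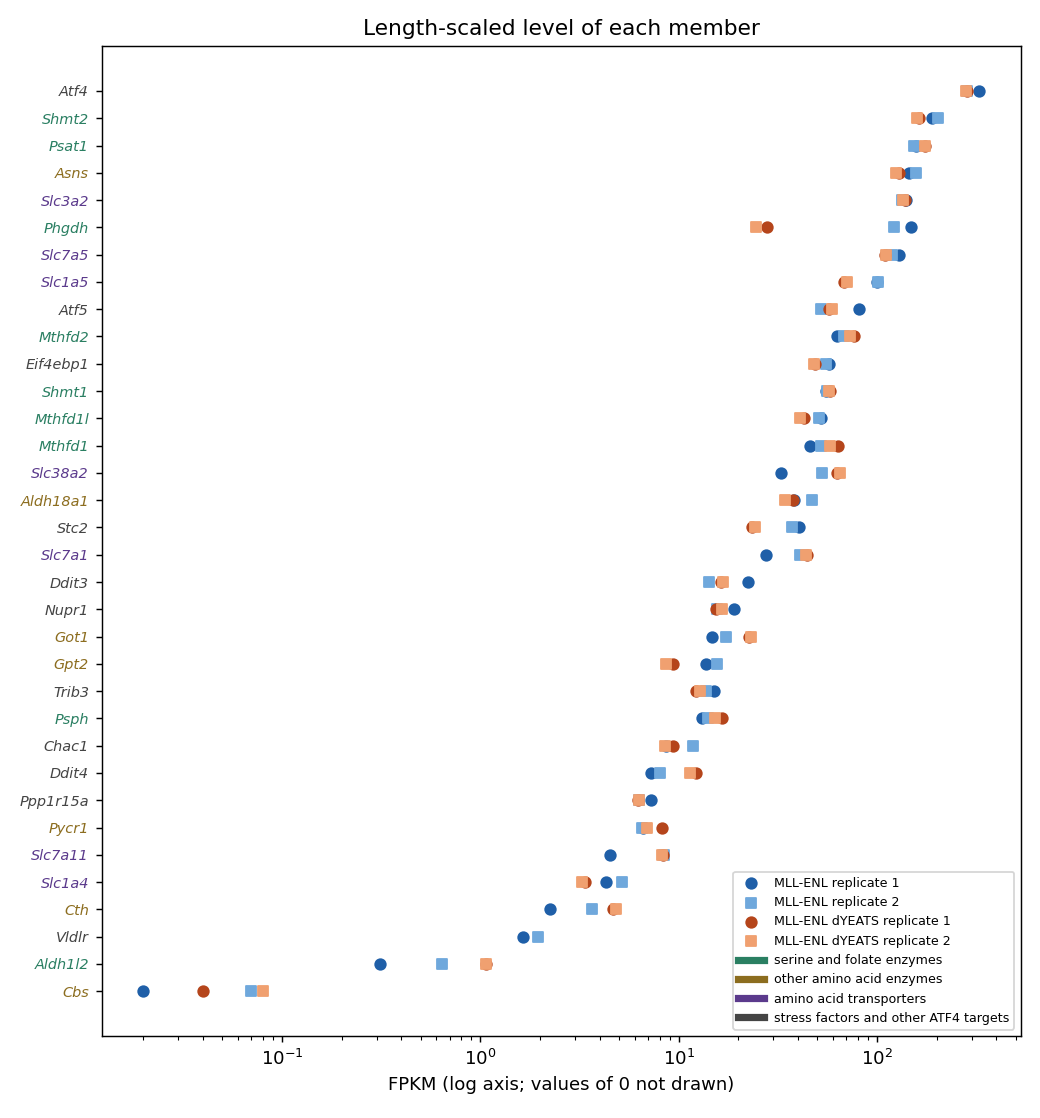
Deposited FPKM (x axis, log scale; values of 0 are not drawn) of each member in each library (points), ordered on the y axis by the MLL-ENL mean, with name colours for the 4 role groups. Phgdh is at rank 6 of 34 in MLL-ENL cells, at 134 FPKM, and at rank 17 in MLL-ENL dYEATS cells, at 26.2 FPKM; Atf4 is at rank 1 in both.

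Calls of modest size rested on having both MLL-ENL dYEATS libraries. Leaving out replicate 1 or 2 of that group ended the calls of Ddit4, Got1, Gpt2, Slc1a4, Slc1a5 and Stc2, with the same direction; the lone library left is then assumed to vary like the MLL-ENL pair. Over all alternatives the adjusted p ranged from 8.91e-06 to 0.445 for Ddit4, 3.54e-07 to 0.531 for Got1, 9.34e-10 to 0.266 for Gpt2, 5.71e-07 to 0.400 for Slc1a4, 5.19e-13 to 0.404 for Slc1a5 and 3.37e-14 to 0.187 for Stc2, with each highest value from such a left-out library. Phgdh and Aldh1l2 stayed called in all 4 such fits. DESeq2 did not call Ddit4 or Slc1a4, limma on FPKM did not call Ddit4, Slc1a4, Got1 or Gpt2, and Got1 also lost its call under both other filters.

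The spread behind these values was unequal. The median size of the log2 ratio between the libraries of a group was 0.20 over the members in the MLL-ENL pair and 0.05 in the MLL-ENL dYEATS pair, against 0.29 and 0.06 over all genes. Of the 32 tested members other than Vldlr, 27 were farther apart in the MLL-ENL pair, and 8 were over 1.3-fold apart there. Atf5, Ddit3 and Nupr1 were higher in MLL-ENL replicate 1, and Slc7a11, Cth, Slc38a2, Aldh1l2 and Slc7a1 were higher in replicate 2. Over these 32 members, Spearman's rho of the MLL-ENL replicate 1 to 2 ratio with exonic length was -0.48, and over 13237 genes it was -0.39. This is across genes of the same 2 libraries, which are not independent replicates, and what it owes to length was not tested.

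**Figure D4:**
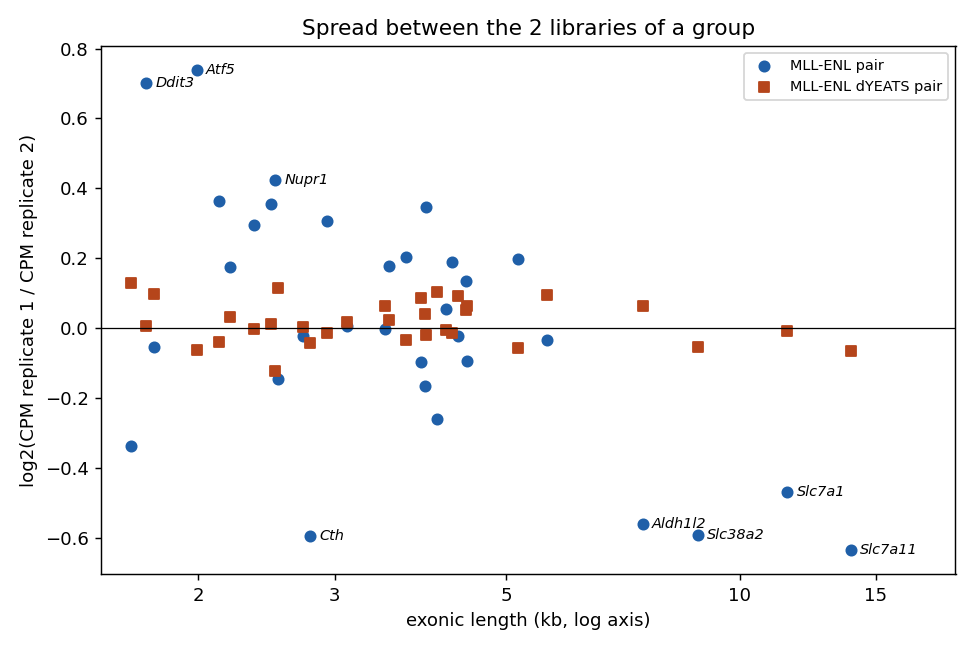
Log2 ratio of replicate 1 to replicate 2 (y axis) against exonic length (kb, log axis) for 32 members, with circles for the MLL-ENL pair and squares for the MLL-ENL dYEATS pair. Circles run from short members such as Atf5 at 0.74 to long ones such as Slc7a11 at -0.64, while all squares lie within 0.13 of 0.

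Other genes of the same pathways were counted from lists of textbook members. Of 16 tested genes of the folate cycle, folate uptake and glycine cleavage, 1 was lower and 15 were not called, with a median log2 fold change of 0.10 that ranged from 0.07 to 0.34 over the alternatives. At an unadjusted p under 0.05 in edgeR, 6 were above and 1 was below, against 2040 and 2370 of 13245 genes tested. With the length trend removed 3 were called higher (1274 of 13237 over all genes), and with the replicate block 1 was (1435 of 13245). The gene that fell was Aldh1l1, the cytosolic counterpart of Aldh1l2, at 2.88 and 2.56 CPM in MLL-ENL and 0.409 and 0.419 CPM in MLL-ENL dYEATS libraries (log2 fold change -2.702 ± 0.26 SE, edgeR adjusted p = 0.00260). The mitochondrial enzyme rose while the cytosolic one fell, and Aldh1l1 was called in all 14 alternatives that tested it.

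In the methionine cycle, 2 of 6 tested genes were higher and 0 were lower, against 7.04% and 9.84% of all genes tested. At an unadjusted p under 0.05 in edgeR, 0 were lower too, against 2370 of 13245 over all genes. The 2 called genes were Mtrr, which reactivates methionine synthase, at 22.8 and 29.7 against 42.4 and 41.2 CPM, and Mtap, of methionine salvage, at 39.5 and 39.9 against 56.3 and 57.0 CPM (edgeR adjusted p = 0.0428 and 0.0292). In purine synthesis, which draws carbon from formyl-folate, 2 of 10 genes were higher, against the same 7.04% of all genes tested. These 2 were Adss, at 115 and 117 against 170 and 171 CPM, and the weakly expressed Impdh1, at 1.46 and 1.53 against 2.72 and 2.76 CPM (edgeR adjusted p = 0.0204 and 0.0439). The enzymes that consume formyl-folate, Gart and Atic, had log2 fold changes of 0.01 and -0.01 and were named after their values were seen. The calls of Mtrr, Mtap, Adss and Impdh1 ended when either MLL-ENL dYEATS library was left out. Mtrr also lost its call with library totals, at 5 CPM and by limma on log2(FPKM + 1), Mtap by the last of these, and Impdh1 by DESeq2 and by limma on log2(FPKM + 0.1).

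Upstream of ATF4, 1 of 15 eIF2alpha kinases and regulators was lower and 0 were higher, against 9.84% and 7.04% of all genes tested. The lower gene, Eif2ak2 (PKR), was at 96.3 and 92.7 CPM in MLL-ENL and at 62.6 and 61.5 CPM in MLL-ENL dYEATS libraries (log2 fold change -0.61, edgeR adjusted p = 0.0174). That call ended without either of the MLL-ENL dYEATS libraries and by limma on FPKM. Of the dimer partners Cebpb, Cebpg and Atf3, 0 were called by the main edgeR fit, DESeq2 or limma-voom, with 1 below at an unadjusted p under 0.05. With the length trend removed, 1 of the 3 was called lower, against 1628 of 13237 over all genes.

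Among 12 further ATF4 targets that were tested, 1 was higher, 2 were lower and 9 were not called. The 3 dimer partners above are among these 12. Over all genes tested, 7.04% were higher and 9.84% lower. With the length trend removed, 1 of the 12 was higher and 4 were lower, against 1274 and 1628 of 13237 over all genes. The dimer partner called lower in that fit is 1 of these 4. Slc6a9, the glycine transporter GLYT1, rose from 1.87 and 2.67 CPM to 8.41 and 7.26 CPM (log2 fold change 1.78 ± 0.23 SE, edgeR adjusted p = 0.00707) and was called in every alternative. Slc6a9 met the filter of at least 5 CPM in 2 libraries through the MLL-ENL dYEATS libraries alone, so its call there adds no support. Gdf15, a secreted stress cytokine, fell from 7.24 and 5.37 CPM to 2.18 and 3.001 CPM (log2 fold change -1.28, edgeR adjusted p = 0.0265), and was not called once MLL-ENL dYEATS replicate 1 was left out. It met the filter of at least 5 CPM in 2 libraries through the MLL-ENL libraries alone, so its call there adds no support either. Map1lc3b (LC3B), of autophagosomes, was at 101 and 91.0 against 61.7 and 62.3 CPM (log2 fold change -0.63, edgeR adjusted p = 0.0194), which was not called either once a MLL-ENL dYEATS library was left out or by limma on FPKM.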

How the data were processed

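Poly(A) RNA of 4 libraries, 2 per group, was analysed from gene tables. Per the labels' protocols, libraries were made with a Lexogen poly(A) selection kit and a Swift RNA library kit. Per the submitters' processing notes, the tools were STAR 2.7.8a, RSEM 1.3.3, cutadapt 2.3 and FastQC 0.11.8, and the build was GRCm38 (mm10). The authors deposited RSEM expected counts and FPKM for 55426 genes. The labels do not state whether counting used the strand.

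Expected counts were rounded to whole numbers, filtered with filterByExpr, scaled by TMM and tested with edgeR 4.0.16 (quasi-likelihood F-test, group as the only term, R 4.3.3). Benjamini-Hochberg adjustment ran over all 13245 genes tested, and calls were made at 0.05. CPM are TMM-scaled. The fit had 2 residual and 3.41 prior degrees of freedom. The steps were tested on simulated data with the same spread in both groups. That test does not cover the unequal spread of the pairs seen here. A floor of 3 counts per library stood for 0. Alternatives were other scalings and filters, a replicate block, each library left out, DESeq2 1.42.0, limma 3.58.1 (voom, or log2 of FPKM plus 1 or 0.1), removal of the ribosomal RNA and mitochondrial genes, and removal of a length trend. FPKM served for levels between genes.

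Members, pathway lists and markers were chosen with earlier results of these data known. All members were named; of each further list, up to 2 called genes per direction with the largest change, if the higher of its group means reached 1 CPM. Positions and exonic lengths are from GENCODE M21, which matched 55240 identifiers.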

Additional observations from a re-analysis of the deposited data

How the results depend on the processing

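Over 15 alternatives, 0 of the 9 called members changed sign, and Phgdh was called in all 15. The 2235 genes called over all genes became 1350 with a filter of at least 5 CPM in 2 libraries, 1466 by limma on log2(FPKM + 1), and 1392 to 9099 with each library left out in turn. The 3 members called higher became 0 by limma on log2(FPKM + 1) and 0 on log2(FPKM + 0.1), and 1 to 12 with a library left out; the 6 called lower became 2 to 19 with a library left out. The calls outside the left-out fits that were lost were Ddit4 by DESeq2, Got1 with no filter and at 5 CPM, Slc1a4 by DESeq2 and with library totals, and Ddit4, Got1, Gpt2, Slc1a4 and Aldh1l2 by limma on FPKM.

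With the replicate number as a block, 5 members were higher and 6 lower; Cth and Slc38a2 were the added ones. Deviations of same-numbered libraries had a correlation of -0.068. The MLL-ENL dYEATS pair differed little beyond counting error, with a chi-square per degree of freedom of 2.06 against 97.9 for the MLL-ENL pair. The correlation therefore cannot settle whether the numbers pair the libraries. 

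Signs turned only in members that were not called. With each library left out in turn, the log2 value ran from -0.58 to 0.16 for Atf5, -0.61 to 0.093 for Ddit3, -0.32 to 0.11 for Nupr1, -0.0040 to 0.34 for Pycr1 and -0.13 to 0.043 for Slc3a2, the highest without MLL-ENL replicate 1 and the lowest without MLL-ENL replicate 2. Slc3a2 was at 0.0075 with library totals, and at 0.0074 and 0.0075 by limma on FPKM with pseudocounts 1 and 0.1. The cause was not tested. Depth limits Cbs, Aldh1l2, Vldlr and Cth, which have under 10 CPM.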

Other observations

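Glutathione synthesis and NRF2 targets had positive log2 fold changes for 9 of 9 genes, with a median of 0.45, and 3 were called higher by edgeR. Over all genes tested, 6466 of 13245 were positive, the median was -0.01 and 7.04% were called higher. With MLL-ENL replicate 1 left out, 8 of the 9 listed genes were positive and their median was 0.25. Without MLL-ENL dYEATS replicate 1 that median was 0.26. The third called gene, Ggct, lost its call in 8 of 15 alternatives, so that 2 were called with no filter, at 5 CPM, by DESeq2, by limma on FPKM and with the length trend removed. Hmox1, which degrades heme, was at 15.8 and 11.8 CPM in MLL-ENL and at 34.9 and 36.1 CPM in MLL-ENL dYEATS libraries (log2 fold change 1.36 ± 0.17 SE, edgeR adjusted p = 0.00596), and it was called in every alternative. Srxn1, which repairs peroxiredoxins, was at 29.9 and 31.2 against 50.3 and 50.4 CPM (log2 fold change 0.72 ± 0.11 SE, edgeR adjusted p = 0.0112), a call that ended without either MLL-ENL dYEATS library. Gclc and Gclm, the subunits of the rate-limiting enzyme of glutathione synthesis, had log2 fold changes of 0.26 and 0.45 and were not called (edgeR adjusted p = 0.261 and 0.127); they were named after their values were seen.

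Of 13 ER chaperones and XBP1 or ATF6 targets, 1 was lower and 12 were not called, against 9.84% lower over all genes tested. These 13 had a median log2 fold change of 0.00. The gene that fell was Xbp1 itself, the spliced factor of the ER stress response, at 453 and 549 CPM in MLL-ENL and at 316 and 315 CPM in MLL-ENL dYEATS libraries (log2 fold change -0.67 ± 0.13 SE, edgeR adjusted p = 0.0249). That call ended without either MLL-ENL dYEATS library and by limma on FPKM. Hspa5 (BiP), the chief ER chaperone, was at 1565 and 1397 against 1522 and 1533 CPM; it was named after its values were seen.

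Of 13 aminoacyl-tRNA synthetase and tRNA export genes, 0 were called by the main edgeR fit, DESeq2 or limma-voom, with 1 below at an unadjusted p under 0.05 in edgeR. With the length trend removed, 1 of the 13 genes was called lower, against 1628 of 13237 over all genes. Their log2 fold changes were negative for 11 of 13, but for 7 of 13 with library totals and 5 of 13 by limma on FPKM, with a median of -0.10 in edgeR, -0.22 without MLL-ENL replicate 2 and 0.02 by limma on FPKM.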
